A study of Mus musculus with 15 samples.

Results

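The chemokine receptors described here are 8 of the 20089 genes with complete entries in a table of RNA expression in mouse bone marrow-derived macrophages (BMDMs), chosen by name: Ccr1, Ccr2, Ccr3, Ccr7, Ccrl2, Cxcr2, Cxcr4 and Cx3cr1. All 8 passed the filter on low values. BMDMs are macrophages grown from bone marrow in M-CSF (macrophage colony-stimulating factor), and they form osteoclasts, the bone-resorbing cells, when RANKL (receptor activator of NF-kB ligand) is added. The study compared 5 groups of 3 samples from wild-type C57BL/6 mice: control cells in M-CSF alone, and cells in M-CSF with RANKL or with LPS (lipopolysaccharide, a bacterial cell wall component) for 4 h or 72 h, to set osteoclast formation apart from inflammatory activation. The dose of RANKL and of LPS was 100 ng/mL. M-CSF before stimulation lasted 3 days per the labels, while the methods describe 4 days for BMDMs of other mice. The age of the mice, and whether the samples of a group came from separate animals, are not given, so the p-values measure the spread between samples, which may be technical. Cells given M-CSF and no stimulus for another 72 h were not analysed here, so at 72 h the stimulus and the added culture time cannot be told apart.

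The unit is FPKM, which counts fragments per length of exon and per depth of sequencing, so levels of different genes can be set beside each other. The steps between FPKM values gave back the whole fragments behind them, 18306184 to 20330207 per sample over the listed genes. Most receptor values rested on many fragments and some on few, down to 3 for Cxcr2 in an LPS 72 h sample and 5 for Ccr7 in a RANKL 72 h sample. All 12 listed macrophage markers were expressed, with summed levels of 7589 to 20260 FPKM per sample. Of 10 osteoclast markers, 9 rose in RANKL 72 h, and of 10 LPS response genes, all 10 rose in LPS 4 h and 8 in LPS 72 h. Neutrophil granule and surface markers were also abundant, at 8289 to 25600 FPKM in the control samples for 13 genes together. Within LPS 72 h, replicate 3 stood apart, with the highest sums of macrophage (20260 against 7589 and 9438 FPKM), neutrophil and stromal markers, and the LPS 72 h changes of Ccr2, Ccr3, Ccr7, Ccrl2 and Cxcr2, which moved most when it was left out, are also given without it. In such bulk RNA, fewer cells of a type and less RNA per cell cannot be told apart.

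Chemokine receptors are membrane proteins coupled to inhibitory G proteins that steer leukocytes along gradients of chemokines, small secreted proteins. Inflammatory receptors bring monocytes and granulocytes into tissue, homing receptors hold cells in lymphoid organs and bone marrow, and a few atypical receptors bind ligand without G protein signalling. In bone, Ccr2, Cx3cr1 and Cxcr4 are known for the traffic of monocytes and osteoclast precursors between marrow, blood and the bone surface.

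Of the receptor genes, 5 lie on mouse chromosome 9. In the GENCODE M21 annotation of GRCm38, Ccr1 (minus strand, from 123962124 to 123968692), Ccr3 (plus strand, from 124021972 to 124031689) and Ccr2 (plus strand, from 124101950 to 124113557) fall within 151434 bases, with the related gene Ccr1l1 between them. Ccrl2 lies at 111054486 to 111057519 and Cx3cr1 at 119901616 to 120069879 on the minus strand of that chromosome. Cxcr2 lies on chromosome 1 from 74153989 to 74161246 on the plus strand, Cxcr4 on chromosome 1 from 128588199 to 128592293 on the minus strand, and Ccr7 on chromosome 11 from 99144196 to 99155077 on the minus strand. The annotated span of Cx3cr1 overlaps those of other genes on either strand, Csrnp1 and Wdr48 among them, and the spans of the other 7 overlap none. Near-identical transcripts could split reads. Of the 75-base words in the annotated coding transcripts, 1.16% for Ccr2 and 1.12% for Cxcr2 also occurred in a transcript of another gene, and none did for the other 6, Ccr1 against Ccr1l1 included. Strand use in the counting is not given, and overlap of exons was not checked. Whether reads of genes that overlap Cx3cr1 on the other strand were counted with its own was therefore not tested.

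Sequence before the start site is shown for 3 receptors that moved under LPS 4 h, in opposite directions, and that had a RefSeq window (GRCm38.p6) with at most 5 bases of a GENCODE exon. Each run is the 250 bases before the start, and capitals mark a simplified NF-kB-like motif, GGG and CC with any 5 bases between, searched on both strands. Ccrl2 (chr9:111057519-111057768, minus strand), which rose, Cxcr2 (chr1:74153744-74153993, plus strand) and Cxcr4 (chr1:128592300-128592549, minus strand), which fell, read as follows.
Ccrl2: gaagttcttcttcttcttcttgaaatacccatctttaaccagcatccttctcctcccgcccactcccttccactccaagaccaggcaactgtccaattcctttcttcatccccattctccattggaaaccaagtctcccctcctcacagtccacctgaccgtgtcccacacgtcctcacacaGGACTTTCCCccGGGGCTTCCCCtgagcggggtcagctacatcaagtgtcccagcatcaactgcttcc
Cxcr2: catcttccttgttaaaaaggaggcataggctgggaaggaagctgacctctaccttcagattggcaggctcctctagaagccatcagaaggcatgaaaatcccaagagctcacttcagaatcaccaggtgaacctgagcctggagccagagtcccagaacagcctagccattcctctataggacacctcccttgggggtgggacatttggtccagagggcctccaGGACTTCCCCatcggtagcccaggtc
Cxcr4: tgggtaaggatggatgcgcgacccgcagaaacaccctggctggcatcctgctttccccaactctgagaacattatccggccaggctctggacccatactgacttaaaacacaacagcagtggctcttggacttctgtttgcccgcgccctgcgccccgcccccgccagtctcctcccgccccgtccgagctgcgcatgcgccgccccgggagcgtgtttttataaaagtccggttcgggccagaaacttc
In Ccrl2 the match GGACTTTCCC begins at position -68 from the start, and the overlapping matches GGGGCTTCCC and GGGCTTCCCC begin at -56 and -55. The table has 3 starts for Ccrl2, and the windows of the other two (chr9:111057271-111057520 and chr9:111057245-111057494) hold 139 and 140 bases of GENCODE exons and no match. Cxcr2 has GGACTTCCCC at -26, and Cxcr4 has no match in this window. Ccr1, Ccr3 and Cx3cr1 also have a match in their windows, and Ccr2 has none. The motif is loose, and 45.8% of the 32817 promoter windows of the same length hold it. Other motifs searched were AP-1 (TGANTCA, in 6.75% of windows), a PU.1-like motif (GAGGAA, in 23.3%) and an ISRE-like motif (GAAA and GAAA with any 2 bases between, in 2.97%). Of the receptors with a window, Ccr3 had an AP-1 match, at -144, PU.1-like matches were in Ccr1, Ccr3 and Cxcr2, and none had an ISRE-like match. The PU.1-like match of Ccr3, at -181, overlaps its NF-kB-like match GGAAATTCCC, at -179. The promoter table has entries for 7 of the 8 genes, and Ccr7 is named only. These matches are letters in a window and not measured sites.

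**Figure D1:**
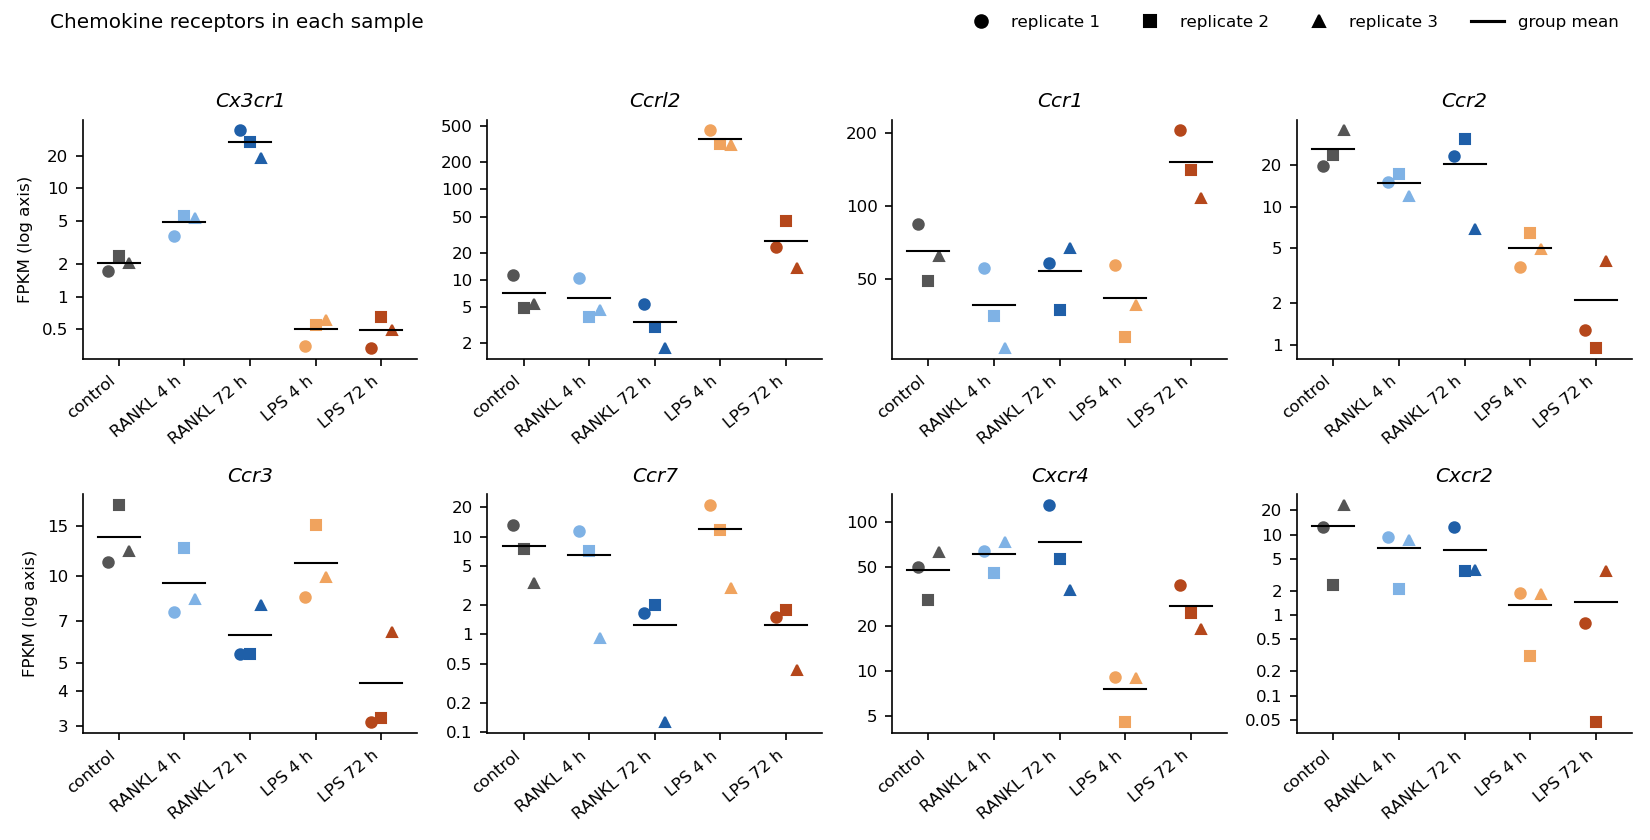
FPKM of each receptor (log axis) in the 15 samples, with marker shapes for replicates 1 to 3 and a bar for the group mean. Cx3cr1 is highest in the 3 RANKL 72 h samples (18.96 to 34.3 FPKM), Ccrl2 in the 3 LPS 4 h samples (311.4 to 444.8 FPKM) and Ccr1 in the 3 LPS 72 h samples (108.0 to 204.0 FPKM).

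RANKL for 4 h changed no receptor by the test used, whereas each of the other stimuli changed several. Here "changed" means a fold over 1.5 or under 0.66 together with a Benjamini-Hochberg adjusted p under 0.05, from limma on log2(FPKM + 0.1). In RANKL 4 h against control, 0 of 8 receptors changed, where 0.119% of the 11743 genes tested did. At an unadjusted p under 0.05, 2 of the 8 (Ccr1 and Cx3cr1) and 583 of all genes passed. Limma voom on the recovered fragments also called 0 of the 8, and 14 of all genes. In RANKL 72 h, 3 of 8 changed against 24.2% of all genes, with Cx3cr1 higher and Ccr3 and Ccr7 lower. In LPS 4 h, 5 of 8 changed against 48.1%, with Ccrl2 higher and Ccr2, Cxcr2, Cxcr4 and Cx3cr1 lower. In LPS 72 h, 6 of 8 changed against 27.4%, with Ccr1 and Ccrl2 higher and Ccr2, Ccr3, Cxcr2 and Cx3cr1 lower. These 4 comparisons share the control samples.

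With RANKL set directly against LPS, 4 of 8 receptors differed at 4 h, where 50.0% of all genes did. Ccr2, Cxcr4 and Cx3cr1 were higher in RANKL 4 h and Ccrl2 was lower. At 72 h 6 of 8 differed against 36.1% of all genes, with Ccr2, Cxcr2, Cxcr4 and Cx3cr1 higher in RANKL and Ccr1 and Ccrl2 lower. Between times, 1 of 8 (Cx3cr1) differed in RANKL 72 h against RANKL 4 h, where 23.3% of genes did. In LPS 72 h against LPS 4 h, 6 of 8 differed against 58.1%, with Ccr1 and Cxcr4 higher and Ccr2, Ccr3, Ccr7 and Ccrl2 lower. Exact permutation tests of 3 samples against 3 cannot give a p below 0.1, which every pair of groups without overlap reached.

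The median tested gene itself moved, by -0.52 on the log2 scale in LPS 4 h, 0.16 in RANKL 72 h and 0.08 in LPS 72 h. The median over the 8 receptors was -1.26, -0.64 and -1.80 in the same comparisons. When samples were centred on their median gene, 4 receptors in place of 5 changed in LPS 4 h, while all genes changed went from 5650 to 3400. Cxcr2 was the receptor lost, at a log2 fold change of -2.40 and an adjusted p of 0.115. The rise of Ccrl2 was then 6.25, and the falls were -1.80 for Ccr2, -2.08 for Cxcr4 and -1.29 for Cx3cr1.

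**Figure D2:**
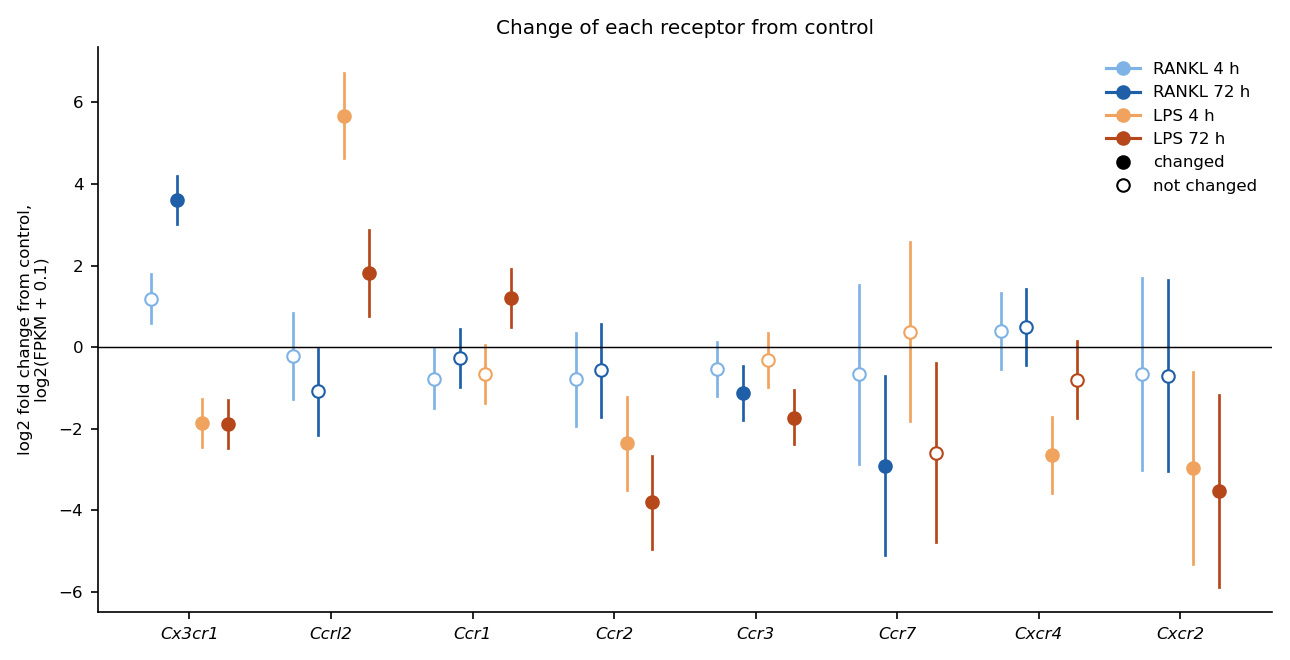
Log2 fold change of each receptor from control on the log2(FPKM + 0.1) scale, for RANKL and LPS at each time, with 95% confidence intervals from limma. Filled points passed the fold and adjusted p thresholds, and the intervals of Ccr7 and Cxcr2 are the widest.

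Cx3cr1, the receptor for the membrane-bound chemokine Cx3cl1 (fractalkine), rose in RANKL 72 h and fell with LPS. The control samples had 1.712, 2.400 and 2.051 FPKM (2.05 ± 0.344, SD, n = 3). In RANKL 4 h the values were 3.629, 5.587 and 5.368 FPKM, and in RANKL 72 h they were 34.30, 26.91 and 18.96 FPKM (26.7 ± 7.67). Every RANKL 4 h sample lay above every control sample, and every RANKL 72 h sample above every RANKL 4 h sample. Under LPS the level was 0.3508 to 0.6027 FPKM at 4 h and 0.3379 to 0.6467 FPKM at 72 h, from 27 to 50 fragments per sample, and all 6 samples were below the control range.

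Cx3cr1 rose in RANKL 72 h by 3.61 ± 0.27 (SE) on the log2 scale, 12.2-fold (limma adjusted p = 1.36e-06), and between the RANKL times by 2.42 ± 0.27 (adjusted p = 4.69e-05). In RANKL 4 h the difference was 1.19 ± 0.27, 2.28-fold and higher in 3 of 3 samples, with an adjusted p of 0.168. In LPS Cx3cr1 was lower at both times, with log2 fold changes of -1.86 ± 0.27 (adjusted p = 6.92e-05) at 4 h and -1.88 ± 0.27 (adjusted p = 0.000184) at 72 h. The difference between the LPS times was -0.03 with an interval of -0.61 to 0.56. Centred on the median gene, that difference was -0.67 and passed the test (adjusted p = 0.0421). RANKL and LPS stood 45.0-fold apart at 72 h. The T and NK cell markers mark other cells that carry Cx3cr1. Of these markers 2 of 10 (Cd5 and Klrb1c) rose in RANKL 72 h, near the share of all genes that rose (16.6%). The summed level of the 10 markers was 17.8 to 44.5 FPKM there and 12.8 to 22.7 FPKM in control, and its part in the result was not tested. Among the RANKL 72 h samples the Cx3cr1 values ran in the same order as the T and NK cell sums (44.5, 42.3 and 17.8 FPKM) and the stromal marker sums (1843, 825.3 and 393.4 FPKM), as they did for the neutrophil, monocyte, B cell and basophil, mast cell and eosinophil sums. The osteoclast marker sums (3168, 1721 and 5474 FPKM) were highest in replicate 3, where Cx3cr1 was lowest. Macrophage, dendritic cell and LPS response sums were highest in replicate 2. Without RANKL 72 h replicate 1 the rise of Cx3cr1 was 3.41.

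Ccrl2 is an atypical receptor that presents the chemoattractant chemerin (Rarres2) to Cmklr1 and is not known to signal through G proteins. It had the largest change of the 8. The control samples had 11.35, 4.898 and 5.503 FPKM (7.25 ± 3.56), and the LPS 4 h samples had 444.8, 312.0 and 311.4 FPKM (356 ± 76.9), the latter from 15127 to 20883 fragments. By LPS 72 h the level had come down to 23.31, 44.62 and 13.50 FPKM, still above all control samples. RANKL samples spanned 3.932 to 10.63 FPKM at 4 h and 1.796 to 5.382 FPKM at 72 h, which overlapped control.

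The rise of Ccrl2 in LPS 4 h was 5.68 ± 0.49 on the log2 scale, 51.3-fold (limma adjusted p = 6.76e-07), and the later level was 1.82 ± 0.49, 3.54-fold, above control (adjusted p = 0.0109). Without LPS 72 h replicate 2 that late difference was 1.38 with an adjusted p of 0.0577, and without replicate 3 it was 2.24. From LPS 4 h to LPS 72 h the log2 difference was -3.86 ± 0.49 (adjusted p = 1.28e-05). In RANKL 72 h it was -1.09 ± 0.49 (adjusted p = 0.104), lower than control in 3 of 3 same-numbered pairs, and blocking on the replicate number gave an adjusted p of 0.0333. At 4 h Ccrl2 was 59.6-fold lower in RANKL than in LPS.

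Ccr1, a receptor for Ccl3, Ccl5, Ccl6, Ccl9 and related inflammatory chemokines, ranked first or second in mean level among the 8 in every group and rose in LPS 72 h. Control samples had 84.28, 48.90 and 61.94 FPKM (65.04 ± 17.9). The LPS 72 h samples had 204.0, 140.6 and 108.0 FPKM (151 ± 48.9), all above the control range. The remaining groups lay between 25.99 and 66.81 FPKM and overlapped control. The log2 fold change in LPS 72 h was 1.20 ± 0.33, 2.30-fold (limma adjusted p = 0.0134), and it missed the threshold without LPS 72 h replicate 1 (0.96, adjusted p = 0.0684) or control replicate 2 (1.01, adjusted p = 0.0584). In LPS 4 h it was -0.66 ± 0.33 (adjusted p = 0.101), and 3 of 3 samples were below the control sample of the same number. With the replicate block this fall had an adjusted p of 0.0194. The RANKL 4 h difference from control was -0.78 with an interval of -1.49 to -0.06 (adjusted p = 0.928), also lower in 3 of 3 same-numbered pairs. LPS 72 h was 1.86 ± 0.33 above LPS 4 h (adjusted p = 0.000237), and RANKL 72 h differed from LPS 72 h by -1.47 ± 0.33 on the log2 scale (adjusted p = 0.00275).

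Ccr2, the receptor for Ccl2, Ccl7 and Ccl12 through which inflammatory monocytes leave the marrow, fell with LPS at both times. Control samples had 19.69, 23.61 and 35.72 FPKM (26.3 ± 8.36). LPS 4 h samples had 3.649, 6.435 and 4.941 FPKM, and LPS 72 h samples had 1.278, 0.9542 and 4.064 FPKM. All 6 LPS samples were below all control samples, while LPS 72 h replicate 3 lay within the LPS 4 h range (without it the late change was -4.41). In RANKL the values were 15.23, 17.40 and 11.91 FPKM at 4 h and 23.47, 30.74 and 6.915 FPKM at 72 h, where replicate 3 stood apart from the other two. The RANKL 4 h samples were all below control, at a log2 fold change of -0.79 with an interval of -1.93 to 0.35.

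The log2 fold change of Ccr2 was -2.36 ± 0.53 in LPS 4 h (limma adjusted p = 0.00175) and -3.81 ± 0.53 in LPS 72 h (adjusted p = 0.000138). Between the LPS times it was -1.45 ± 0.53 (adjusted p = 0.0263), a call that ended without LPS 4 h replicate 2 or 3 or LPS 72 h replicate 1 or 2 (adjusted p = 0.0871, 0.0571, 0.0910 and 0.122) and with limma voom (adjusted p = 0.0579). RANKL 72 h gave a change of -0.57 with an interval of -1.71 to 0.57, and without replicate 3 it was 0.07. RANKL was above LPS by 1.57 ± 0.53 at 4 h (adjusted p = 0.0200), which centring on the median gene ended (1.0, adjusted p = 0.174), as did leaving out RANKL 4 h replicate 2 (1.45, adjusted p = 0.0617) or LPS 4 h replicate 1 (1.36, adjusted p = 0.0705). At 72 h it was above LPS by 3.24 ± 0.53, 9.45-fold (adjusted p = 0.000251). Sums of 8 monocyte markers were 1159 to 2121 FPKM in LPS 4 h (1 of 8 genes higher and 1 lower than control), 208.1 to 392.4 FPKM in RANKL 72 h (5 of 8 lower), 404.6 to 674.9 FPKM in LPS 72 h (4 of 8 lower) and 861.6 to 1378 FPKM in control. Ly6c2, a marker of inflammatory monocytes, had a log2 fold change of -3.62 in RANKL 72 h, 0.09 in LPS 4 h and -1.34 in LPS 72 h (limma adjusted p = 0.0525), where it went from 613 ± 167 to 242 ± 65.2 FPKM. The part of such cells in the falls of Ccr2, at either LPS time, was not tested.

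Ccr3, the receptor for the eotaxins Ccl11 and Ccl24 that marks eosinophils and basophils, fell late under both stimuli. Control samples had 11.20, 17.68 and 12.29 FPKM (13.7 ± 3.47). The values in RANKL 72 h were 5.373, 5.366 and 7.953 FPKM, and in LPS 72 h they were 3.099, 3.203 and 6.419 FPKM. All of these were below the control range, whereas the samples at 4 h spanned 7.528 to 15.07 FPKM and overlapped it. The log2 fold change was -1.12 ± 0.31 in RANKL 72 h (limma adjusted p = 0.0142) and -1.73 ± 0.31 in LPS 72 h (adjusted p = 0.000817). The former missed the threshold without control replicate 2 (-0.93, adjusted p = 0.0626) or RANKL 72 h replicate 2 (-1.03, adjusted p = 0.050). Without LPS 72 h replicate 3 the late LPS change was -2.06. RANKL 72 h and LPS 72 h differed by 0.60 with an interval of -0.06 to 1.26. LPS 4 h against control was -0.31, and 0.25 when centred on the median gene.

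The basophil, mast cell and eosinophil markers also fell late under both stimuli. Of these, 12 of 12 fell in RANKL 72 h and 11 of 12 in LPS 72 h, and their summed level went from 61.8 to 153.9 FPKM in control to 4.04 to 12.8 FPKM and 3.41 to 7.55 FPKM. Their part in the fall of Ccr3 was not tested. Ccr3 itself averaged 6.23 ± 1.49 FPKM in RANKL 72 h and 4.24 ± 1.89 FPKM in LPS 72 h. Within control, RANKL 4 h and LPS 4 h, the marker sum was highest in replicate 1, where Ccr3 was lowest. In RANKL 72 h the sum was lowest in replicate 3, where Ccr3 was highest. In LPS 72 h replicate 3 was highest for both.

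Ccr7, which draws dendritic cells and lymphocytes to lymph nodes along Ccl19 and Ccl21, was spread widely between replicates. Control samples had 13.25, 7.481 and 3.366 FPKM, RANKL 4 h samples 11.56, 7.144 and 0.9251 FPKM and LPS 4 h samples 21.01, 11.75 and 2.959 FPKM. In each of these groups replicate 3 was lowest and replicate 1 highest. At 72 h the values were 1.656, 1.999 and 0.1254 FPKM with RANKL and 1.498, 1.770 and 0.4311 FPKM with LPS, all below the control range. Replicate 3 was again lowest.

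The log2 fold change of Ccr7 was -2.91 ± 1.02 in RANKL 72 h (limma adjusted p = 0.0447) and -2.60 ± 1.02 in LPS 72 h (adjusted p = 0.0621). Without LPS 72 h replicate 3 the latter was -2.03 (adjusted p = 0.168). The RANKL 72 h change missed the threshold with a pseudocount of 1 (adjusted p = 0.0513), no trend (0.0556), no filter on low values (0.122) or limma voom (0.104), and without RANKL 72 h replicate 3 (-1.88, adjusted p = 0.191), control replicate 1 (-2.45, 0.153) or control replicate 2 (-2.85, 0.0964). RANKL 72 h and LPS 72 h differed by -0.31 with an interval of -2.51 to 1.88. LPS 72 h differed from LPS 4 h by -2.97 ± 1.02 on the log2 scale (adjusted p = 0.0193), a call lost without LPS 4 h replicate 1 or 2 or LPS 72 h replicate 3 (adjusted p = 0.0836, 0.0554 and 0.0790). With the replicate block, Ccr7 was also lower in RANKL 72 h than in RANKL 4 h (-2.23, adjusted p = 0.000753 against 0.113 without) and lower in RANKL 4 h than in LPS 4 h (-1.05, adjusted p = 0.0241 against 0.392 without). The summed level of 10 dendritic cell markers was 160.2, 93.9 and 43.7 FPKM in control replicates 1 to 3, the same order as Ccr7. For RANKL 72 h it was 91.8, 123.9 and 43.4 FPKM with 3 of 10 genes lower, and in LPS 72 h 42.5, 42.4 and 47.1 FPKM with 6 of 10 lower. Of 9 B cell markers, 5 were lower at 72 h with either stimulus, and of 10 T and NK cell markers 1 was lower in LPS 72 h. Their part in the falls of Ccr7 was not tested.

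Cxcr4, the receptor for Cxcl12 that retains blood cells in the marrow, fell in LPS 4 h and was higher again in LPS 72 h. Control samples had 49.80, 29.82 and 62.82 FPKM (47.5 ± 16.6). LPS 4 h samples had 9.077, 4.526 and 9.003 FPKM, and LPS 72 h samples had 37.77, 24.36 and 19.27 FPKM. The LPS 4 h samples were below those of every other group, and the LPS 72 h samples overlapped control. The log2 fold change was -2.64 ± 0.43 in LPS 4 h (limma adjusted p = 0.000168), and LPS 72 h was above LPS 4 h by 1.85 ± 0.43 (adjusted p = 0.00189). Against control, LPS 72 h was at -0.80 with an interval of -1.73 to 0.14.

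The Cxcr4 values of RANKL 4 h were 63.35, 45.71 and 72.78 FPKM, each above the control sample of the same number, with a log2 fold change of 0.39 and an interval of -0.54 to 1.33. The RANKL 72 h samples spread from 129.4 over 56.70 to 34.83 FPKM, and their change of 0.48 had an interval of -0.45 to 1.42. Without RANKL 72 h replicate 1 that change was -0.03. RANKL was above LPS by 3.03 ± 0.43 at 4 h (limma adjusted p = 5.25e-05) and by 1.28 ± 0.43 at 72 h (adjusted p = 0.0273). The latter groups overlapped, and the call ended without RANKL 72 h replicate 1 (0.77, adjusted p = 0.137) or without LPS 72 h replicate 2 or 3 (1.23, adjusted p = 0.0733, and 1.06, adjusted p = 0.0870). Replicate 1 of RANKL 72 h also had the highest summed level of 12 stromal markers, 1843 FPKM against 825.3 and 393.4 FPKM in replicates 2 and 3, the same order as Cxcr4. The neutrophil, monocyte, B cell, T and NK cell and basophil, mast cell and eosinophil sums ran in that order too. By contrast, the macrophage, dendritic cell and LPS response sums were highest in replicate 2 and the osteoclast sum in replicate 3. In control and RANKL 4 h the stromal sum was lowest in replicate 3, where Cxcr4 was highest. For LPS 72 h it was highest in replicate 3, where Cxcr4 was lowest, and in LPS 4 h replicate 1 was highest for both. Of the stromal markers 7 of 12 rose in RANKL 72 h (2 of 12 when centred on the median gene), and their part in the Cxcr4 values was not tested.

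Cxcr2, the receptor of neutrophils for Cxcl1, Cxcl2, Cxcl3, Cxcl5 and Ppbp, was low in LPS at both times. Control samples had 12.50, 2.402 and 23.30 FPKM, and replicate 2 was the lowest in each of the 5 groups. LPS 4 h samples had 1.872, 0.3131 and 1.810 FPKM, all below control. LPS 72 h samples had 0.7965, 0.0466 and 3.542 FPKM, the middle one from 3 fragments, and overlapped control. RANKL samples were at 9.445, 2.102 and 8.691 FPKM at 4 h and at 12.33, 3.572 and 3.677 FPKM at 72 h.

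The log2 fold change of Cxcr2 was -2.96 ± 1.10 in LPS 4 h (limma adjusted p = 0.0311) and -3.53 ± 1.10 in LPS 72 h (adjusted p = 0.0228). The first was lost without control replicate 1 or 3 or LPS 4 h replicate 2 (adjusted p = 0.0808, 0.126 and 0.129). The second was lost without control replicate 1 or 3 or LPS 72 h replicate 1 or 2 (adjusted p = 0.0680, 0.0891, 0.0545 and 0.113), and with limma voom (0.0554), while without LPS 72 h replicate 3 the change was -4.64. RANKL 72 h was above LPS 72 h by 2.83 ± 1.10 (adjusted p = 0.0484), a call that ended without any of RANKL 72 h replicates 1, 2 and 3 or LPS 72 h replicates 1 and 2 (adjusted p = 0.0648 to 0.236). It also ended with a pseudocount of 1 (adjusted p = 0.0752), no filter on low values (0.130) or centring on the median gene (0.0640). The same held for a fit of only the 2 groups (0.0802), no trend (0.0595) and limma voom (0.0972). RANKL 4 h was above LPS 4 h by 2.30 in 3 of 3 pairs, with an adjusted p of 0.0834, and 0.00571 with the replicate block. In RANKL the changes from control were -0.67 at 4 h (interval -3.02 to 1.69) and -0.70 at 72 h (interval -3.05 to 1.65).

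Neutrophil markers were low beside Cxcr2 in LPS 72 h and not in LPS 4 h. In LPS 4 h their summed level, 7510 to 23710 FPKM, was within the control range except for its lowest sample, and 1 of 13 genes was lower (0 lower and 1 higher when centred), while all 3 Cxcr2 values were below control. In LPS 72 h the sum was 941.5 to 2683 FPKM and 10 of 13 genes were lower and 1 higher. The RANKL 72 h sum was 2040 to 8165 FPKM and 7 of 13 were lower, while Cxcr2 overlapped control. Replicate 2 had the lowest sum in control, RANKL 4 h and LPS 4 h, as it had for Cxcr2. The part of neutrophils in the falls of Cxcr2, at either LPS time, was not tested.

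**Figure D3:**
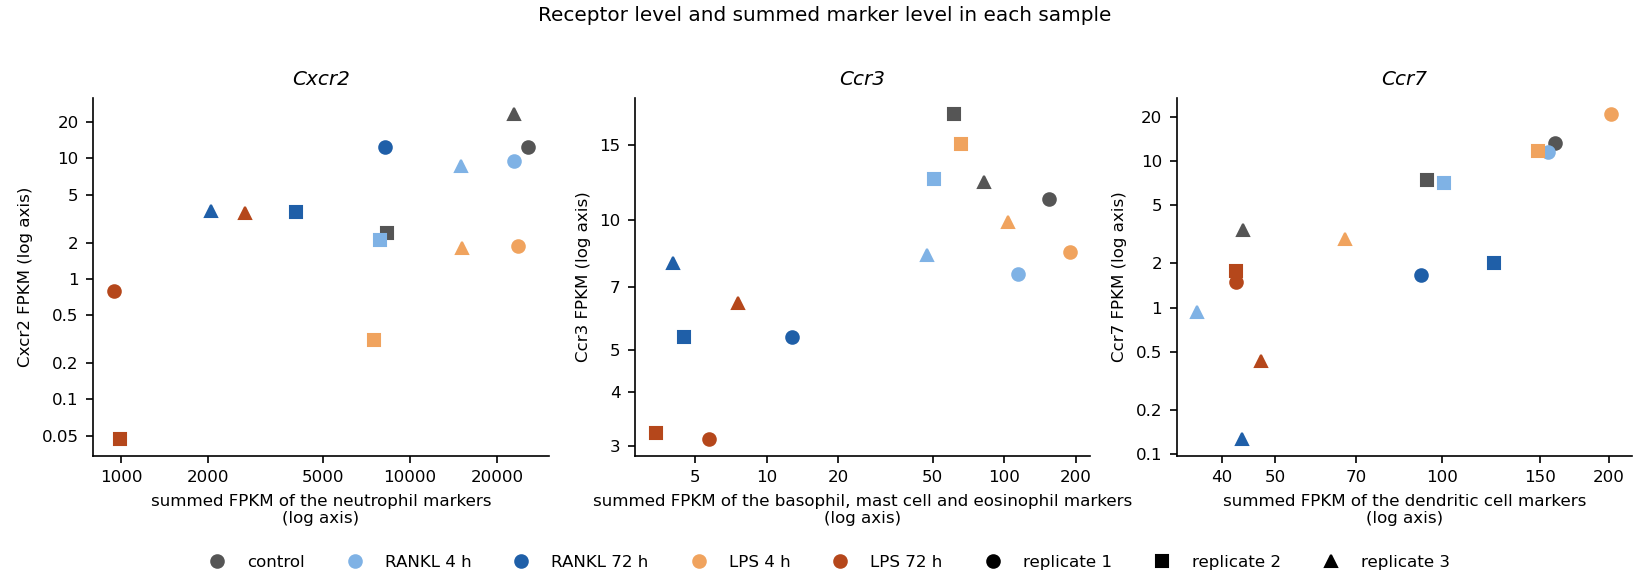
Cxcr2, Ccr3 and Ccr7 in FPKM (y, log axis) against the summed FPKM of neutrophil, of basophil, mast cell and eosinophil, and of dendritic cell markers (x, log axis) in the 15 samples, coloured by group with shapes for replicates. LPS 4 h samples keep neutrophil marker sums of 7510 to 23710 FPKM at Cxcr2 levels of 0.3131 to 1.872 FPKM, and the 72 h samples have the lowest marker sums of the Ccr3 panel (3.41 to 12.8 FPKM).

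Summed over the 8 genes, receptor RNA was 183 ± 39.4 FPKM in control, 148 ± 25.1 in RANKL 4 h, 192 ± 68.3 in RANKL 72 h, 435 ± 96.2 in LPS 4 h and 215 ± 58.2 in LPS 72 h (SD, n = 3). In control, Ccr1 made up 35.6% ± 5.72, Cxcr4 25.5% ± 4.41 and Ccr2 14.7% ± 4.37 of the sum. In LPS 4 h, Ccrl2 alone made up 81.9% ± 0.405, and in LPS 72 h, Ccr1 made up 69.8% ± 4.99. For RANKL 72 h, Cxcr4 and Ccr1 led with 35.6% ± 11.7 and 30.4% ± 14.7, and Cx3cr1 had gone from 1.19% ± 0.487 in control to 14.1% ± 1.87. These shares describe RNA per gene length and not receptor protein.

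**Figure D4:**
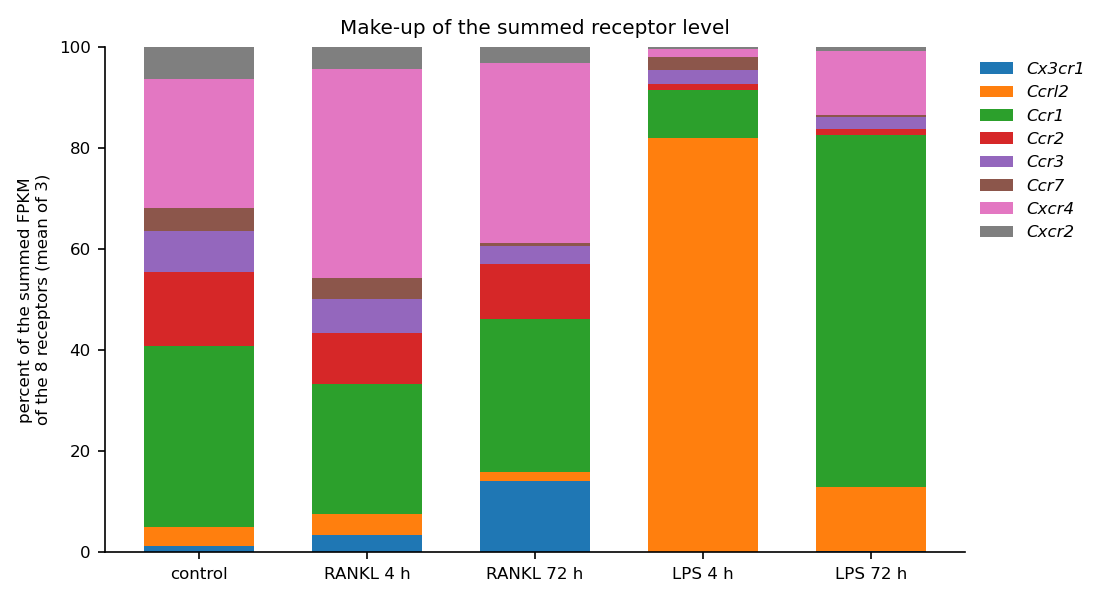
Mean percent of the summed FPKM of the 8 receptors (3 samples per group) taken by each receptor, stacked to 100 per group. The bar of LPS 4 h is mostly Ccrl2 (81.9%), that of LPS 72 h mostly Ccr1 (69.8%), and Cx3cr1 is a visible part in RANKL 72 h (14.1%).

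The order of the group means showed few clean steps. For Cx3cr1 the order was RANKL 72 h, RANKL 4 h, control, LPS 4 h, LPS 72 h, with no overlap between neighbours down to LPS 4 h and overlap of both LPS groups. For Ccrl2 it was LPS 4 h, LPS 72 h, control, RANKL 4 h, RANKL 72 h, with overlap from control down. Ccr1 separated LPS 72 h from the rest, Cxcr4 separated LPS 4 h from the rest, and Ccr2 separated the RANKL groups and control from the LPS groups. Neighbouring groups of Ccr3 and Ccr7 overlapped throughout, and for Cxcr2 they overlapped except RANKL 72 h over LPS 72 h.

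Most ligands of these receptors rose in LPS 4 h and fell in RANKL 72 h. In LPS 4 h, 12 of 19 ligand genes tested rose and 0 fell, where 8.43% of all genes rose and 39.7% fell. The Cxcr2 ligands Cxcl1, Cxcl2 and Cxcl3 were among those that rose. Cxcl1 went from 3.24 ± 1.20 to 940 ± 242 FPKM (log2 fold change 8.16 ± 0.32), Cxcl2 from 8.41 ± 4.75 to 1423 ± 426 FPKM (7.48 ± 0.47) and Cxcl3 from 16.7 ± 19.3 to 398 ± 105 FPKM (5.20 ± 0.81). In LPS 72 h 5 of 19 rose and 3 fell (1522 rose and 1690 fell of all 11743 genes), with Cxcl3 at 4.83, Cxcl1 at 3.80 and Cxcl2 at 3.69 above control and with Ppbp at -2.14, Ccl24 at -1.27 and Ccl4 at -1.02. In RANKL 72 h, 13 of 19 fell and 1 rose (7.54% and 16.6% of all genes). Ccl2, the main ligand of Ccr2, went from 808 ± 170 to 67.3 ± 33.1 FPKM (-3.72 ± 0.34), and Ccl12 and Ppbp fell by 3.68 and 4.71 on the log2 scale. Mif, which also binds Cxcr4, was the gene that rose, from 211 ± 45.0 to 583 ± 44.7 FPKM (1.48 ± 0.26). In RANKL 4 h, 0 of 19 changed. The median over the 19 ligands was 1.52 in LPS 4 h, -2.60 in RANKL 72 h and 0.15 in LPS 72 h.

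Among 16 other chemokine receptors, 9 passed the filter on low values. Cmklr1, the signalling receptor for chemerin, fell from 36.4 ± 6.55 FPKM in control to 19.1 ± 4.68 in RANKL 72 h (log2 fold change -0.94 ± 0.21, limma adjusted p = 0.00424). Ccr9, a gut homing receptor, fell by 2.96 in RANKL 72 h and by 2.84 in LPS 72 h from 1.87 ± 0.917 FPKM. Ackr3, a scavenger of Cxcl12, rose from 0.175 ± 0.139 to 1.33 ± 0.792 FPKM in RANKL 72 h (2.37 ± 0.40, adjusted p = 0.000810). Cxcr3 fell by 1.52 in LPS 4 h from 1.65 ± 0.431 FPKM, a call that centring ended (-0.96), after which 2 of the 9 were higher and 0 lower. Those were Ackr3 (0.87, and 1.44 when centred) and Ccr10 (0.72, and 1.28 when centred). Cxcr6 was at 0.373 to 4.21 FPKM over all samples and did not pass the test against control. With the replicate block, Cxcr6 (-1.04, adjusted p = 0.0284) and Ackr3 (0.87, adjusted p = 0.0355) passed in LPS 4 h, and Cxcr5 (-1.26, adjusted p = 0.0304) in RANKL 72 h. Ccr1l1, Ccr10, Cxcr5 and Ackr1 stayed at a mean under 1 FPKM in every group and were not called against control without the block or centring. Centred, Ccr10 was also called in RANKL 72 h (-1.31). Ccr4, Ccr6, Ccr8, Cxcr1, Ackr2, Ackr4 and Pitpnm3 were below the filter.

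Of 36 genes for the signalling steps below the receptors (G protein subunits, receptor kinases, arrestins, regulators of G protein signalling and Rac activators), 7 rose and 1 fell in RANKL 72 h, 4 rose and 14 fell in LPS 4 h, and 1 rose and 8 fell in LPS 72 h, with 0 of 36 in RANKL 4 h. Rises and falls together were near the share of all genes changed in the same comparisons (24.2%, 48.1% and 27.4%). The balance of rises and falls depended on the scaling. Centred on the median gene, 4 rose and 5 fell in RANKL 72 h, 8 rose and 5 fell in LPS 4 h, and 1 rose and 10 fell in LPS 72 h. The kinase gene Adrbk2 (Grk3), whose product desensitises active receptors, rose from 3.24 ± 0.240 to 20.0 ± 6.32 FPKM in RANKL 72 h (2.54 ± 0.23, limma adjusted p = 6.68e-06). Arrb1, a beta-arrestin gene, rose by 1.10 ± 0.28 in RANKL 72 h and in LPS 4 h its log2 fold change was -2.19. Rgs16 rose by 1.22, 2.18 and 2.13 in RANKL 72 h, LPS 4 h and LPS 72 h, the first of which centring ended (1.0). Rgs1 rose by 1.83 in LPS 4 h and fell by 1.84 in RANKL 72 h. Pik3r5, a regulatory subunit of the PI3-kinase that G proteins activate, rose by 1.70 in LPS 4 h. Rgs2 fell by 2.57 and Rgs18 by 1.60 in LPS 4 h, and in LPS 72 h Rgs18, Rgs2 and Rgs10 fell by 2.41, 1.84 and 1.33.

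The receptors did not share a common pattern over the 15 samples. Pearson correlations between pairs of them on the log2 scale ran from -0.84 (Ccrl2 and Cxcr4) to 0.77 (Ccr2 and Cxcr2), as a description of samples that share groups and libraries. Among the 9486 genes whose mean reached 1 FPKM, those most like Cx3cr1 were Borcs7 (r = 0.955), Ank (0.954) and Lmna (0.950), and those most like Ccrl2 were Mfsd7a (0.992), Adora2a (0.984) and Katna1 (0.981). Nearest to Cxcr2 were Slc2a3 (0.968), Pi16 (0.960) and Alox5 (0.949), and nearest to Ccr7 were Ccr9 (0.952), Klk1 (0.905) and Cacnb3 (0.895). The closest to Ccr3 were Coro2a (0.909), Mpo (0.885), which is in the neutrophil list, and Cd5l (0.882). For Ccr2 they were Sept6 (0.941), Fkbp5 (0.930) and Map4k1 (0.927), for Cxcr4 Cdadc1 (0.954), Ctdsp1 (0.944) and Arhgef4 (0.938), and for Ccr1 Isca2 (0.909), H2-T-ps (0.893) and Sar1b (0.881).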

How the data were processed

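The 15 RNA-seq samples of mouse BMDMs, 3 in each of 5 groups, were grouped and numbered as in the labels. The authors deposited FPKM values for each sample, made with StringTie and Ballgown according to their methods, and used edgeR for their own comparisons. The submitters' processing notes name the builds GRCm38.p4 and mm10, and the aligner, the annotation and strand use are not given in the sources used here. The entry for Ttk is incomplete, and genes after it in alphabetical order were not analysed here. Whole fragments were recovered from the FPKM steps of 14485 genes that were above 0 in 3 or more samples, with 100% of values within 0.01 of a whole number. FPKM are not counts, so no count model was the main test.

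The test was limma 3.58.1 in R 4.3.3 (lmFit, eBayes with trend, two-sided) on log2(FPKM + 0.1) for 11743 genes whose mean reached 0.1 FPKM, in a single fit of 5 groups, with Benjamini-Hochberg adjustment over all of them. On this scale the fold changes of low genes are understated. On simulated data of RANKL 72 h against control with 11743 genes, the fit called 76 of 100 genes changed by 1 on the log2 scale, 99 of 100 changed by 2 and 6 of 11543 unchanged genes. The changed genes were drawn only from genes of higher level and small spread between samples, with normal noise independent between samples. These counts therefore do not carry over to receptors of wide spread, such as Ccr7 and Cxcr2. Alternatives covered the pseudocount (1 and 0.01), the filter, the scaling, the groups in the fit, the replicate block, the trend, the adjustment of p, the fold threshold (2), limma voom and leaving out each sample in turn.

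What samples of the same replicate number share is not given in the labels. Deviations from the group means correlated over 9486 genes in every same-numbered pair between RANKL 4 h and control (0.842, 0.707 and 0.743), RANKL 72 h and control (0.318, 0.136 and 0.184), LPS 4 h and control (0.624, 0.616 and 0.440), RANKL 4 h and LPS 4 h (0.692, 0.670 and 0.555) and RANKL 72 h and RANKL 4 h (0.244, 0.162 and 0.251). From these values alone, those comparisons were treated as paired where the block is named. The evidence was weaker for RANKL 72 h, where 4 of 6 samples correlated best with their own number, against control and against RANKL 4 h. The block was a single term for the replicate number in the fit of all 15 samples, LPS 72 h included. The members and gene lists were chosen with earlier results of these data known. Named genes are all 8 receptors, up to 3 largest rises and falls per list and comparison with control whose mean reached 1 FPKM, the other receptors (1 of those listed is not reported here), and the 3 genes most correlated with each receptor. Cd5, Klrb1c, Ly6c2, Ccl24 and Ackr3 were named after their values were seen. Positions are from GENCODE M21 (GRCm38) and promoter windows from RefSeq (GRCm38.p6). Python 3.11.15 with pandas 2.3.3 and matplotlib 3.10.9 was used for tables and figures.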

Additional observations from a re-analysis of the deposited data

Results flagged for a closer look

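The level under a stimulus differed between 4 h and 72 h for 7 receptor results. Each passed the limma contrast of the late with the early samples, in which the control has no part. In these differences a changed response and the added culture time cannot be told apart. With RANKL, Cx3cr1 stood 2.42 higher on the log2 scale at 72 h than at 4 h. With LPS, Ccr1 stood 1.86 and Cxcr4 1.85 higher at 72 h, whereas the late minus early difference was -3.86 for Ccrl2, -2.97 for Ccr7, -1.45 for Ccr2 and -1.41 for Ccr3. The early and late groups did not overlap for these results except for Ccr2, where LPS 72 h replicate 3 lay within the LPS 4 h range. Lack of overlap was common among all genes too. Between the LPS times 68.0% of all genes did not overlap and 58.1% differed by the test. Between the RANKL times these shares were 49.0% and 23.3%. The receptors without overlap numbered 5 between the LPS times and 1 between the RANKL times.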

How the results depend on the processing

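Of 1152 values for a receptor, comparison and alternative, 1049 kept their direction and their side of the threshold, 55 no longer passed, 17 newly passed and 31 changed sign, all of the last among differences that passed in neither setting. The calls of Cx3cr1 in RANKL 72 h, LPS 4 h and LPS 72 h, of Ccrl2 and Cxcr4 in LPS 4 h, of Ccr2 at both LPS times and of Ccr3 in LPS 72 h held under all 18 alternatives. Those of Cxcr2 and Ccr7, whose levels spread widely between replicates, did not. Their fewest fragments were 3 for Cxcr2 in LPS 72 h and 5 for Ccr7 in RANKL 72 h. The calls of Ccr3 in RANKL 72 h and of Ccr1 and Ccrl2 in LPS 72 h were lost in 2, 2 and 1 alternatives. Where a call was lost or a sign changed, the cause was not tested.

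The number of the 8 receptors changed moved from 0 to 2 in RANKL 4 h with unadjusted p, where all genes changed went from 14 to 301. In RANKL 72 h against RANKL 4 h it moved from 1 to 2 with unadjusted p or the replicate block. There all genes changed went from 2732 to 3329 and to 3006. Leaving out each sample in turn gave 1 to 3 receptors for RANKL 72 h against control (main 3, and 1 without control replicate 2). All genes changed then numbered 2060 to 2758 (main 2837). For RANKL 72 h against RANKL 4 h it gave 1 to 2 receptors (2 without RANKL 4 h replicate 3) and 1939 to 2519 genes (main 2732). With no filter on low values, calls were lost for Cxcr2 in LPS 4 h (adjusted p = 0.0986) and LPS 72 h (0.0749), for Cxcr2 (0.130) and Cxcr4 (0.0816) in RANKL 72 h against LPS 72 h, for Ccr2 in RANKL 4 h against LPS 4 h (0.0676), and for Ccr2 (0.0819) and Ccr7 (0.0665) in LPS 72 h against LPS 4 h. With a fit of only the 2 groups compared, Cxcr2 in LPS 72 h (0.0672) and Cxcr2 (0.0802) and Cxcr4 (0.0677) between the late groups were lost, and Ccr7 in LPS 72 h (0.0195) and Cxcr2 in RANKL 4 h against LPS 4 h (0.0361) were gained. Single samples left out gained Ccr1 in LPS 4 h (-0.92, 0.0425, without LPS 4 h replicate 1), Ccr7 in RANKL 72 h against RANKL 4 h (-3.29, 0.0286, without RANKL 4 h replicate 3) and Ccr3 in RANKL 72 h against LPS 72 h (0.94, 0.0155, without LPS 72 h replicate 3).

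In LPS 72 h against control, RANKL 72 h against LPS 72 h and LPS 72 h against LPS 4 h, samples of the same number were not treated as paired (correlations of their deviations -0.229 to 0.184). In these comparisons 4, 0 and 1 of 6 samples correlated best with their own number. The replicate block made Ccr7 pass in LPS 72 h (-2.60, adjusted p = 0.000193) and changed no other call of the 8 in these 3 comparisons. In the paired comparisons it changed the 5 calls given with the 8 receptors and no other of theirs.

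FPKM rescaled to equal sums changed the sign of Cxcr2 in RANKL 72 h against RANKL 4 h (0.08) and of Cx3cr1 in LPS 72 h against LPS 4 h (0.01), and centring on the median gene that of Ccr3 in LPS 4 h (0.25) and Cxcr4 in RANKL 72 h against RANKL 4 h (-0.13). Leaving out each sample in turn, log2 differences that changed sign ranged as follows. Against control they were -1.37 to 0.38 for Ccr7, -0.65 to 0.15 for Ccrl2 and -1.59 to 0.02 for Cxcr2 in RANKL 4 h, -0.99 to 0.07 for Ccr2 and -0.03 to 0.92 for Cxcr4 in RANKL 72 h, and -0.23 to 1.17 for Ccr7 in LPS 4 h. In RANKL 4 h against LPS 4 h they were -0.40 to 0.14 for Ccr1, -0.44 to 0.01 for Ccr3 and -1.84 to 0.01 for Ccr7. In RANKL 72 h against RANKL 4 h they were -0.20 to 0.87 for Ccr2, -0.72 to 0.34 for Cxcr2 and -0.42 to 0.52 for Cxcr4. Between late groups the range was -0.89 to 0.72 for Ccr7, and between the LPS times -1.68 to 0.64 for Cxcr2 and -0.22 to 0.18 for Cx3cr1.

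Over all genes, centring lowered the number changed from 5650 to 3400 in LPS 4 h and from 5872 to 3485 in RANKL 4 h against LPS 4 h. A fold threshold of 2 left 1730 of 2837 in RANKL 72 h, 3257 of 5650 in LPS 4 h, 1827 of 3212 in LPS 72 h, 3334 of 5872 and 2605 of 4245 between RANKL and LPS at 4 h and 72 h, and 1604 of 2732 between the RANKL times. In RANKL 4 h the 14 genes changed became 6 with no filter, 0 with 2 groups in the fit, 24 with the block, 3 with no trend, 301 with unadjusted p and 1 to 15 with single samples left out.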
